A study of Mus musculus with 11 samples.

Results

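The 10 genes described here encode apolipoproteins and proteins that assemble them into chylomicrons, the lipoproteins that carry dietary fat out of the intestine. They are Apoa1, Apoa4, Apob, Apoc2, Apoc3, Apoe, Mttp, Apobec1, Sar1b and Pla2g12b, taken by symbol from the deposited table of all libraries. All 10 were among its 24250 genes, and 9 of them had a mean of at least 1 FPKM (sequenced fragments scaled to transcript length and library total, so a level per length), as did 10296 genes in all. Apoc2 lay below that level.

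RNA was sequenced from mouse small intestine in 3 groups, ND (3 libraries), HFD (4 libraries) and a group given a powder with Poria, the herbal preparation Wuling San (4 libraries, FSP here for the initials of its labelled name, and H1 in the table). ND and HFD, which no label spells out, are read as normal and high-fat diet. The study's title is about lipid disorders, an incretin and gut microbes in obese mice. No label gives the diet fed alongside FSP, nor a strain, age, sex, dose, duration, batch or stretch of small intestine. The libraries of a group are listed as separate samples, with nothing said of separate animals. Each p-value therefore rests on the spread between libraries, part of which may be technical.

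Enterocytes take up fatty acids and monoglycerides and rebuild triglyceride in the endoplasmic reticulum. There the microsomal triglyceride transfer protein, encoded by Mttp, loads lipid onto apolipoprotein B, the structural protein of the particle. The particle then leaves in a large COPII-coated carrier that needs the GTPase Sar1b, gains apolipoproteins A-I, A-IV and C-III, and is secreted into lymph. In the gut the cytidine deaminase Apobec1 edits the Apob messenger, turning a glutamine codon into a stop codon, and the shortened protein is the form chylomicrons carry.

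The edited site is shown because it marks a step of chylomicron assembly that these values do not measure. The edited codon is codon 2179 of 4505 in the longest annotated Apob transcript and lies in exon 26 of 29, at chr12:8008054-8008056 of GRCm38 (mm10). It is in capitals in the genomic plus strand, chr12:8008042-8008074. FPKM counts fragments of edited and unedited messenger alike, so no value below measures editing.
Apob edited site: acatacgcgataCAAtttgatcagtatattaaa

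The promoter windows, from RefSeq on GRCm38, were the 250 bases before the start that RefSeq gives. Gene positions here are GENCODE's, and in Apoa1, Apoa4, Apob, Mttp and Pla2g12b, and for the alternative starts of Apoe, the RefSeq start lies inside the gene as GENCODE places it. Apoc3 had no window and was not searched. They were searched on both strands for CAAAGTNCA, a form of the element that HNF4 nuclear receptors bind. It was found in 392 of 32851 windows (1.19%) and in those of 2 of the 9 members with a window, Apoa4 and Apobec1. Both members passed the test between HFD and ND given below. A match describes letters only, and the motif was chosen with the results known. Hnf4a stood at 198 ± 5.32 FPKM (SD, n = 3) in ND and 120 ± 12.3 (SD, n = 4) in HFD, a log2 difference of −0.73 (limma adjusted p = 0.00879, or 0.0999 by median ratios). Hnf4g stood at 217 ± 41.0 (SD, n = 3) and 144 ± 13.7 (SD, n = 4), a difference of −0.58 (limma adjusted p = 0.0898, or 0.0357 in a fit of these 2 groups and 0.0452 without FSP 1). The stretches of Apoa4 and Apobec1 are shown for that shared match, with that of Apoa1, a neighbour of Apoa4, beside them. No other form of the element was searched, so a window without this match, such as that of Apoa1, may still hold the element. Each stretch runs from base 250 to base 149 before the RefSeq start, which leaves it upstream of the GENCODE start as well, with the match in capitals, and that of Apoa1 holds none.
Apoa4, chr9:46240594-46240695, plus strand: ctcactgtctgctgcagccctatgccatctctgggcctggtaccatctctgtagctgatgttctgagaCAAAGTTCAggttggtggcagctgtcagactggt
Apobec1, chr6:122602593-122602694, minus strand: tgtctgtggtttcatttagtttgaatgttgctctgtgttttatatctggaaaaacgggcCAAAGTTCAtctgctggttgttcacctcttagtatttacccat
Apoa1, chr9:46228380-46228481, plus strand: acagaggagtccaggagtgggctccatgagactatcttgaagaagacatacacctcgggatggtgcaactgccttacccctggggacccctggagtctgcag

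The half-site AGGTCA stood in 14.02% of all windows and in that of Apoc2 alone among the members. TATAAA stood in 12.37% of all windows and in those of Apob, Apobec1 and Apoe, the last in a window of an alternative start.

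The libraries held an estimated 3.18e+07 to 3.84e+07 fragments. Genes that mark mature enterocytes (Vil1, Alpi, Fabp2 and 7 others) were high in every library, with sums between 20019 and 45723 FPKM. The 13 mitochondrially encoded protein genes took 16.3% to 22.2% of summed FPKM in ND, 18.1% to 40.4% in HFD (highest in HFD 1) and 12.9% to 21.9% in FSP. A position score was taken as the mean log2(FPKM + 1) of 12 genes of the distal small intestine minus that of 12 proximal ones. It was 5.14, 4.23 and 2.70 in ND, −1.07, −0.04, −0.85 and −1.32 in HFD, and 2.65, 2.65, 0.60 and 3.39 in FSP, in the order of replicates 1 to 3 or 1 to 4. HFD did not overlap either other group, so diet and score cannot be told apart there.

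Against ND, the HFD libraries were higher in Apoa4, Apoc3 and Apobec1. These were the 3 of 9 tested members past the threshold, an adjusted p under 0.05 by limma on log2(FPKM + 1) with Benjamini-Hochberg adjustment over all tested genes. No member was lower past it. Of all 10296 genes tested, 5.36% were called higher and 20.5% in either direction. The median log2 difference was 0.49 over the 9 members and −0.21 over all genes. Over all genes 552 were called higher and 1557 lower. Median-ratio scaling shifted the median of all genes to −0.0013 and gave 899 and 799, and Apoa4, Apoc3 and Apobec1 passed under it too.

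Between FSP and HFD none of the 9 tested members passed, where 3.74% of all genes were called (291 higher and 94 lower, or 142 and 103 by median ratios). The smallest unadjusted limma p among the members was 0.0400, for Pla2g12b, which did not pass after adjustment. Against ND, FSP was higher in Apoa4, 1 of 9, where 0.699% of all genes were called higher and 1.03% in either direction. The comparisons share libraries, so their values are set side by side and not combined.

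**Figure D1:**
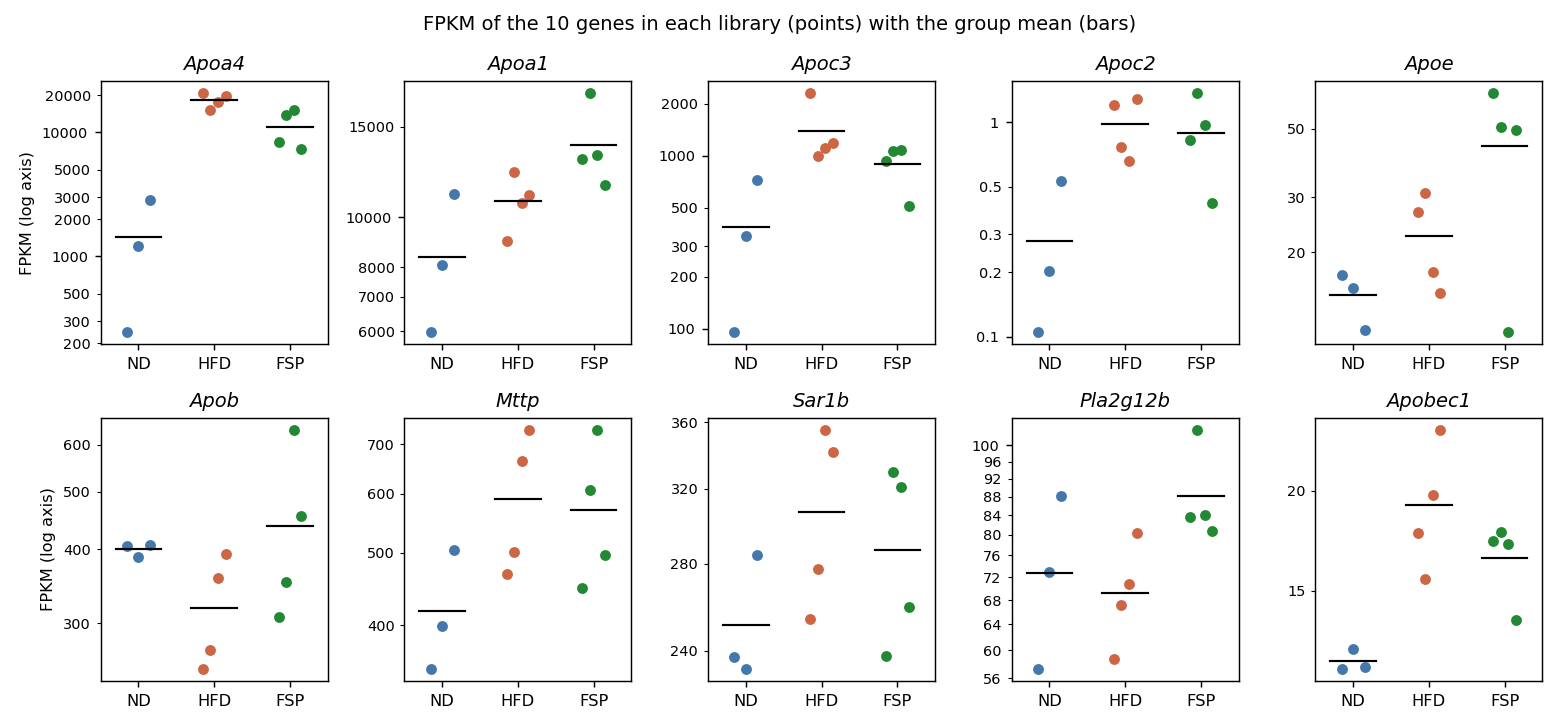
FPKM on log axes (y) of the 10 genes in each ND, HFD and FSP library (points), with the group means as bars. In the Apoa4 panel the 3 groups do not overlap, with ND up to 2837, FSP from 7394 to 15071 and HFD from 15115 FPKM.

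Apoa4 encodes apolipoprotein A-IV, which is made by enterocytes during fat absorption and travels on chylomicrons. It lies at chr9:46240696-46243459 on the plus strand, in a cluster with Apoa1 and Apoc3. It stood at 245, 1208 and 2837 FPKM in ND, at 20758, 15115, 17618 and 19813 in HFD, and at 8307, 13808, 15071 and 7394 in FSP. All HFD libraries lay above all FSP libraries, and these above all ND libraries. Among nuclear-encoded genes it ranked 256th, 26th and 9th in the ND libraries, first or second in HFD and between ranks 2 and 4 in FSP. The ND libraries differed 11.6-fold among themselves, the HFD libraries 1.37-fold.

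The HFD mean of Apoa4 was 12.8 times the ND mean, a log2 difference of 4.27 (SE 0.62, limma adjusted p = 0.00143). It passed without each single library, at 3.30 to 5.06. Between FSP and HFD the difference was −0.77 (SE 0.58, limma adjusted p = 0.511, 95% interval −2.04 to 0.49), although the libraries did not overlap, as was the case for 2.30% of tested genes in that direction. FSP lay above ND by 3.49 (SE 0.62, limma adjusted p = 0.0285). That call was lost in the fit of these 2 groups alone (limma adjusted p = 0.0705), without a filter on low values (0.109), and without ND 2 (0.128), HFD 3 (0.0518), FSP 1 (0.0673) or FSP 2 (0.0544).

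Apoa4 went down as the position score went up, with a Pearson r of −0.835 over the 11 libraries, which differ in group as well. In ND the library with the highest score, ND 1, had the lowest Apoa4. With the score as a covariate the difference between HFD and ND was 0.80 (SE 1.04, limma adjusted p = 0.865), and 0 genes of all tested passed in that comparison. At nearly equal scores of 2.70 and 2.65, ND 3 stood at 2837 FPKM and FSP 1 and FSP 2 at 8307 and 13808. ND 3 was the only ND library near that score, so these values describe single libraries and test nothing. With the score as a covariate FSP stood above ND by 2.28 (SE 0.54, limma adjusted p = 0.180).

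**Figure D2:**
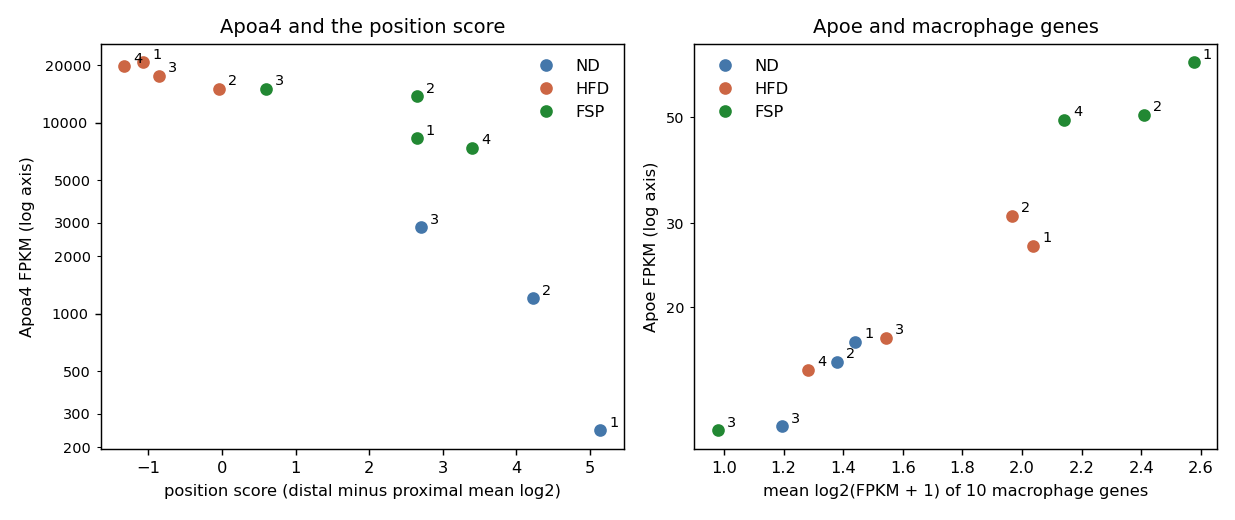
Left, Apoa4 FPKM (log axis) against the position score of each library, numbered by replicate. Right, Apoe FPKM (log axis) against the mean log2(FPKM + 1) of 10 macrophage genes. Apoa4 is lowest at the highest score, 5.14 in ND 1, and Apoe is highest in FSP 1, at 65.2 FPKM, where the macrophage mean is highest.

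Apoc3 encodes apolipoprotein C-III, an inhibitor of lipoprotein lipase, and lies between Apoa1 and Apoa4 on the minus strand, chr9:46232933-46235636. It stood at 95.6, 342 and 726 FPKM in ND, at 2303, 993, 1109 and 1184 in HFD, and at 928, 1071, 1082 and 514 in FSP. All HFD libraries lay above all ND libraries, and HFD 1 stood apart from the other 3. The difference between HFD and ND was 2.19 (SE 0.56, limma adjusted p = 0.0197). It was 1.40 without ND 1 (limma adjusted p = 0.0659) and 2.31 without ND 2 (0.0568), so neither passed, and 1.92 without HFD 1 (0.0483). Without a filter on low values it did not pass either (0.0619). With the position score as a covariate it was −0.81 (SE 0.98). FSP differed from HFD by −0.61 (SE 0.52, adjusted p = 0.575) and from ND by 1.58 (SE 0.56, adjusted p = 0.220). Its correlation with the position score was −0.821, and with Apoa4 0.941, over the same 11 libraries.

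Apoa1 encodes apolipoprotein A-I, the main protein of high-density lipoprotein, which the intestine also adds to chylomicrons. Its start lies 12.12 kb from that of Apoa4, at chr9:46228580-46230466 on the plus strand. It stood at 5977, 8092 and 11085 FPKM in ND, at 9013, 12259, 10686 and 11063 in HFD, and at 12989, 17464, 13252 and 11560 in FSP. It was among the 5 highest nuclear-encoded genes of every library. HFD overlapped both other groups, while all FSP libraries lay above all ND libraries. The difference was 0.40 (SE 0.23, adjusted p = 0.229) between HFD and ND, 0.35 (SE 0.22, adjusted p = 0.416) between FSP and HFD, and 0.75 (SE 0.23, limma adjusted p = 0.162) between FSP and ND. With quantile normalization FSP exceeded HFD by 0.98 (limma adjusted p = 0.0237) and ND by 1.03 (0.0398). That method sets a value by its rank in the library, so these differences rest on ranks and not on the size of the change. Among nuclear-encoded genes Apoa1 ranked 3 to 5 in ND and HFD and 2 to 3 in FSP. In FPKM the FSP mean was 1.28 times the HFD mean and 1.65 times the ND mean.

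Non-overlap between groups ran as follows over the members. HFD lay wholly above ND in Apoa4, Apoc3, Apobec1 and Apoc2, 3 of the 9 tested members and the untested Apoc2, as did 9.28% of the tested genes. FSP lay wholly above ND in Apoa1, Apoa4 and Apobec1, against 5.57% of tested genes. FSP lay wholly above HFD in Pla2g12b, against 8.52% of tested genes.

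Apoc2, at chr7:19671579-19677941 on the minus strand, encodes the apolipoprotein that activates lipoprotein lipase. In ND it was at 0.105, 0.201 and 0.530 FPKM, in HFD at 1.197, 0.765, 0.660 and 1.29, and in FSP at 0.825, 1.37, 0.968 and 0.418. These values rest on about 3.0 to 40.8 fragments per library, so counting error alone is large. In a fit without a filter on low values HFD differed from ND by 0.63 (SE 0.19, limma adjusted p = 0.0877). FSP differed from HFD by −0.07 (SE 0.18, adjusted p = 0.933).

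Apoe encodes apolipoprotein E, a ligand for hepatic lipoprotein receptors that macrophages also make. It lies at chr7:19696109-19699188 on the minus strand, in a cluster with Apoc2. It stood at 16.9, 15.4 and 11.3 FPKM in ND, at 26.8, 31.1, 17.3 and 14.8 in HFD, and at 65.2, 50.7, 11.03 and 49.4 in FSP. FSP 1, FSP 2 and FSP 4 were the 3 highest of all libraries and FSP 3 the lowest. No comparison passed the threshold, with HFD above ND by 0.56 (SE 0.49, limma adjusted p = 0.410). FSP was above HFD by 0.75 (SE 0.46, limma adjusted p = 0.411) and above ND by 1.31 (SE 0.49, adjusted p = 0.249). Without FSP 3 these were 1.30 (limma adjusted p = 0.0182) and 1.86 (0.00850).

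The 3 genes whose log2 level ran most like Apoe over the 11 libraries were C1qb (r = 0.989), Csf1r (0.987) and C1qc (0.982), all known macrophage genes. The mean log2 level of 10 macrophage genes correlated with Apoe at 0.979. Their summed level was 22.0 to 28.8 FPKM in ND, 20.2 to 87.4 in HFD and 13.2 to 150 in FSP, and FSP 3 had the lowest sum of all. None of the 10 was at 0 in all libraries of a group, and the 7 tested passed in no comparison. In bulk tissue more cells of a type and more RNA per cell cannot be told apart, and the part of these cells in the Apoe values was not tested.

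Apob, at chr12:7977648-8016835 on the plus strand, gives each chylomicron its single structural protein. It stood at 405, 388 and 407 FPKM in ND, at 251, 270, 358 and 393 in HFD, and at 307, 352, 636 and 455 in FSP. The ND libraries lay within 1.05-fold of each other, and FSP 3 was highest. HFD differed from ND by −0.35 (SE 0.24, limma adjusted p = 0.284), FSP from HFD by 0.43 (SE 0.22, adjusted p = 0.323) and FSP from ND by 0.07 (SE 0.24, adjusted p = 0.909). Apob correlated at −0.773 over the 11 libraries with the mean log2 level of 8 B and plasma cell genes, and Apoe at 0.75. Those genes summed to 37.9 to 64.6 FPKM in ND, 125 to 284 in HFD and 86.8 (FSP 3) to 800 in FSP, with none at 0 in all libraries of a group. Their part in these values was not tested.

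Mttp, at chr3:138089854-138144968 on the minus strand, stood at 349, 399 and 505 FPKM in ND, at 468, 501, 664 and 730 in HFD, and at 448, 607, 732 and 497 in FSP. The groups overlapped, with 2 HFD libraries above every ND library. HFD exceeded ND by 0.49 (SE 0.21, limma adjusted p = 0.118, 95% interval 0.02 to 0.96). Scaled to totals that leave out the mitochondrially encoded genes and the 10 members, it exceeded ND by 0.61 (limma adjusted p = 0.0415). FSP and HFD differed by −0.05 (SE 0.20, 95% interval −0.48 to 0.38), or by 0.051 at equal totals, and FSP and ND by 0.44 (SE 0.21, adjusted p = 0.373).

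Pla2g12b, at chr10:59403660-59421976 on the plus strand, encodes a phospholipase A2 family member that takes part in loading lipid onto apolipoprotein B. It stood at 57.3, 72.9 and 88.2 FPKM in ND, at 58.7, 67.2, 70.7 and 80.3 in HFD, and at 83.6, 104, 84.1 and 80.9 in FSP. All FSP libraries lay above all HFD libraries, by a margin of less than 1 FPKM at the nearest pair. The difference was 0.35 (SE 0.15, limma adjusted p = 0.239), and that between HFD and ND was −0.06 (SE 0.16), or 0.20 by median ratios. FSP and ND differed by 0.29 (SE 0.16, adjusted p = 0.444). Its level correlated with the mean log2 level of the enterocyte genes at 0.798 over the 11 libraries.

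Sar1b, at chr11:51763687-51791925 on the plus strand, stood at 237, 232 and 285 FPKM in ND, at 254, 278, 355 and 342 in HFD, and at 238, 330, 321 and 260 in FSP. All groups overlapped. Its differences were 0.28 (SE 0.16) between HFD and ND, −0.10 (SE 0.15, or 0.0027 at equal totals) between FSP and HFD and 0.18 (SE 0.16) between FSP and ND. The gene most like Sar1b over the libraries was Mttp (r = 0.927), and those most like Mttp were Surf4 (0.967), P4hb (0.960) and Sec13 (0.957). Surf4 encodes a lipoprotein cargo receptor, P4hb the partner subunit of the transfer protein and Sec13 a COPII coat protein.

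Apobec1, at chr6:122577792-122602444 on the minus strand, stood at 11.98, 12.7 and 12.04 FPKM in ND, at 17.7, 15.5, 19.8 and 23.8 in HFD, and at 17.3, 17.7, 17.1 and 13.8 in FSP. Every HFD and every FSP library lay above every ND library. HFD exceeded ND by 0.59 (SE 0.14, limma adjusted p = 0.0152). The call was lost without ND 1 (limma adjusted p = 0.0626) or ND 2 (0.0549), with libraries scaled to equal totals (0.0613) and with the position score as a covariate (0.22, adjusted p = 0.886). FSP differed from HFD by −0.20 (SE 0.13, adjusted p = 0.464) and from ND by 0.40 (SE 0.14, adjusted p = 0.233). Of 4 tested genes for editing partners, which include the RNA-binding cofactors A1cf and Rbm47, none passed in any comparison. A1cf stood at 26.6 ± 3.19 FPKM (SD, n = 3) in ND and 20.3 ± 1.66 (SD, n = 4) in HFD.

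**Figure D3:**
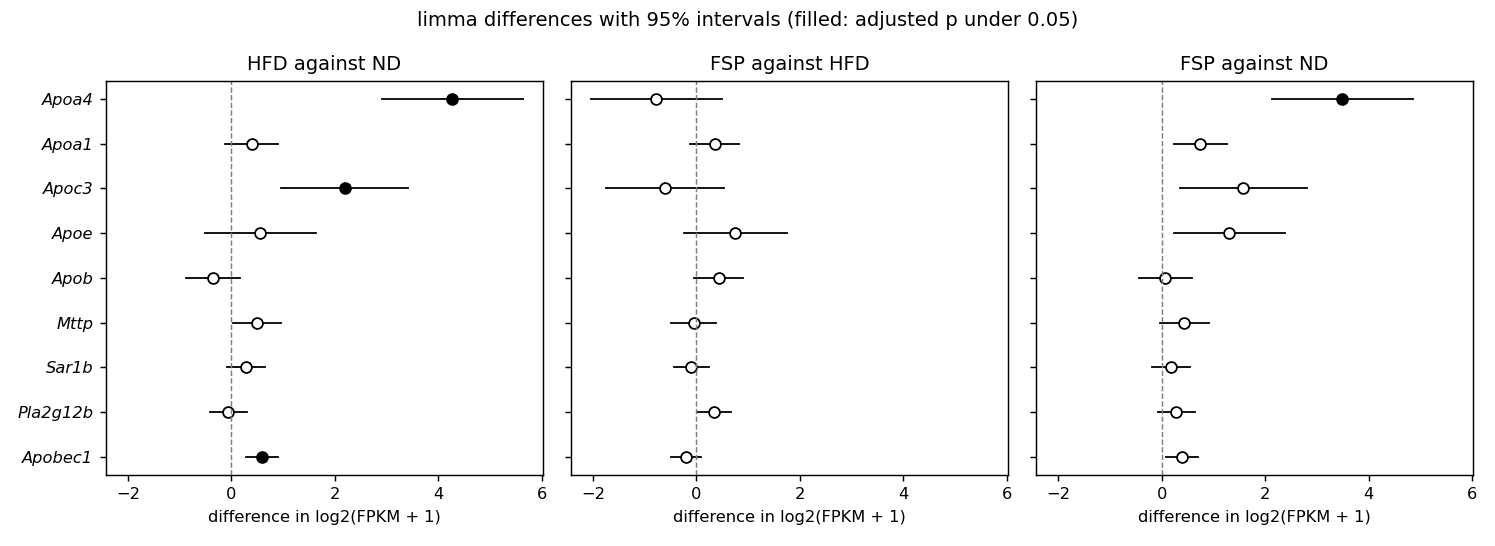
Differences in log2(FPKM + 1) (x) for the 9 tested genes in the 3 comparisons, with 95% intervals as lines and filled points where the limma adjusted p is under 0.05. Apoa4, Apoc3 and Apobec1 are filled for HFD against ND, none for FSP against HFD, and Apoa4 for FSP against ND.

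Ratios of 2 genes within a library do not depend on how the library was scaled, but they can differ with the position score. No ratio was tested with that score as a covariate, so group and score cannot be told apart in them. The FPKM ratio of Apoa4 to Apoa1 was 0.0410, 0.149 and 0.256 in ND, 2.30, 1.23, 1.65 and 1.79 in HFD, and 0.640, 0.791, 1.14 and 0.640 in FSP. The 3 groups did not overlap, with FSP between the others. HFD, with the lowest position scores, had the highest ratios, and in ND the ratio rose as the score fell from 5.14 to 2.70. The mean log2 ratio differed by 3.87 between HFD and ND, by −1.13 between FSP and HFD and by 2.75 between FSP and ND. Each gave a two-sided exact permutation p of 0.0286, the smallest that 4 against 3 or 4 against 4 libraries allow. Adjusted over the 12 tests of 4 ratios in 3 comparisons it was 0.0429, reached only because several tests tied at that smallest p. The ratios were chosen with earlier results of these data known, and they share genes and libraries. The permutation p-values here and below therefore describe the ratios and are not independent tests.

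The ratio of Apoc3 to Apoa1 was 0.0160, 0.0422 and 0.0655 in ND, 0.256, 0.0810, 0.104 and 0.107 in HFD, and 0.0714, 0.0613, 0.0817 and 0.0445 in FSP. HFD lay above ND, by 1.80 on the log2 scale (exact permutation p = 0.0286, adjusted 0.0429). FSP overlapped HFD, with a difference of −0.96 (exact permutation p = 0.0571, adjusted 0.0762), and overlapped ND, with a difference of 0.84 (exact permutation p = 0.2, adjusted 0.218).

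The ratio of Apoa4 to Apoc3 was 2.57 to 3.91 in ND, 9.01 to 16.7 in HFD and 8.95 to 14.4 in FSP. It was higher in HFD than in ND by 2.07 and higher in FSP than in ND by 1.91 on the log2 scale (exact permutation p = 0.0286, adjusted 0.0429, for each). FSP and HFD differed by −0.16 (exact permutation p = 0.457).

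The ratio of Mttp to Apob was 0.863, 1.03 and 1.24 in ND, 1.86, 1.85, 1.85 and 1.86 in HFD, and 1.46, 1.72, 1.15 and 1.09 in FSP. The 4 HFD libraries had an SD of 0.0035 on the log2 scale, against 0.26 in ND and 0.31 in FSP, while Mttp and Apob themselves each spanned 1.56-fold in HFD. HFD lay above ND by 0.85 and FSP differed from HFD by −0.48 (exact permutation p = 0.0286, adjusted 0.0429, for each), and FSP and ND differed by 0.37 (exact permutation p = 0.2, adjusted 0.218). In neither gene alone did these comparisons pass.

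**Figure D4:**
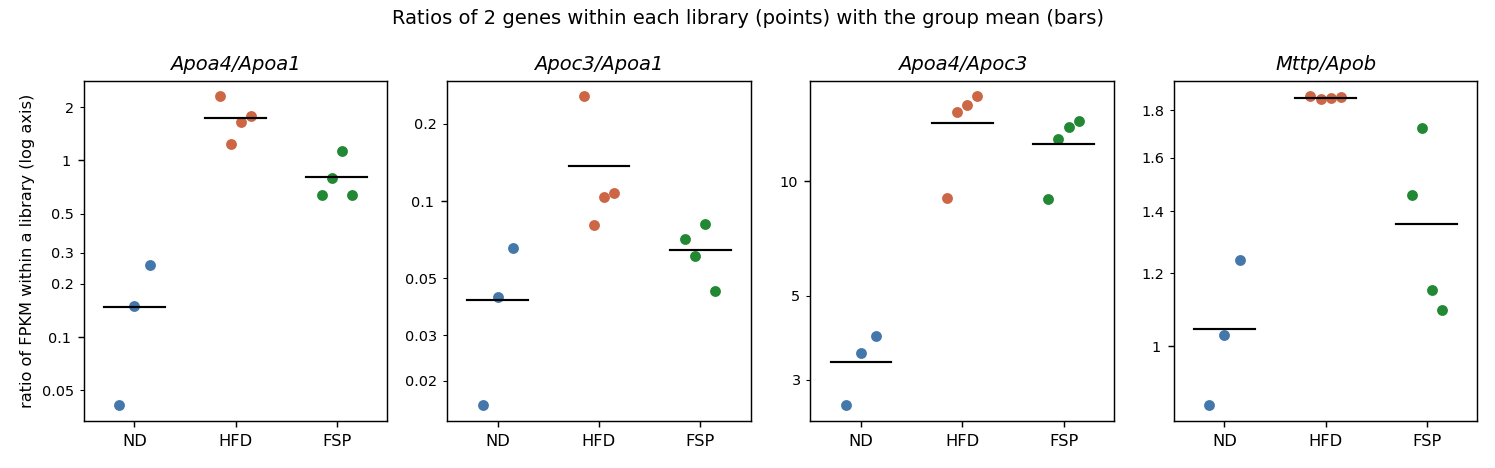
FPKM ratios of 2 genes within each library (points, log axes) with group means (bars). The 4 HFD points of Mttp to Apob lie between 1.85 and 1.86, above the ND points at 0.863 to 1.24 and the FSP points at 1.09 to 1.72.

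Summed over the 10 genes, the members took 1.46% to 3.05% of all FPKM in ND, 5.25% to 6.33% in HFD and 4.26% to 6.32% in FSP. Within that sum Apoa4 made up 10.8 ± 7.24% (SD, n = 3) in ND, 57.4 ± 4.77% (SD, n = 4) in HFD and 40.04 ± 6.05% (SD, n = 4) in FSP. Apoa1 made up 75.2 ± 5.68% in ND, 34.0 ± 5.90% in HFD and 51.3 ± 6.16% in FSP.

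The genes most like Apoa4 over the 11 libraries were Gm30519, Tmem184a and Ms4a10, at r between 0.977 and 0.978. Those most like Apoc3 were Gm30519, Gpx4 and Golt1a, at 0.951 to 0.968. For Apobec1 they were Ankrd9, Pnliprp2 and Praf2, at 0.940 to 0.952. Apoa1 ran with Syce3, Tsc22d3 and Nek6 at 0.919 to 0.928, Apob with Dyrk2, Dock5 and Arcn1 at 0.944 to 0.952, and Pla2g12b with Esrra, Tmbim1 and Dgat1 at 0.926 to 0.957. All libraries share the group differences and the position score, so these are descriptions.

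Genes of the pathway around the members were taken from lists. Many of their calls rested on a few libraries or on the scaling, as given after each list, and with the position score as a covariate no gene passed between HFD and ND or between FSP and HFD.

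Of 14 tested genes that supply triglyceride to the particle, 3 were higher and 1 was lower in HFD than in ND. Dgat2, which adds the last acyl chain, went from 79.2 ± 20.7 FPKM (SD, n = 3) to 266 ± 127 (SD, n = 4), a log2 difference of 1.64 (limma adjusted p = 0.00921, or 0.0526 without ND 1). Acsl3, an acyl-CoA synthetase, rose by 1.54 (limma adjusted p = 0.00201) and the acyltransferase gene Agpat3 by 1.44 (0.00553), while Gpat4, for an acyltransferase of the first step, fell by 0.80 (0.00878). The list's median was 0.04, beside −0.21 over all genes. None of the 14 passed in FSP against HFD. In FSP against ND Acsl3 was higher by 1.27 (limma adjusted p = 0.0344). That call was lost with median-ratio scaling (0.0501), with a replicate block (0.0619) and without any ND library, HFD 3 or FSP 1 (0.0634 to 0.188).

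Of 9 genes for lipid uptake and binding, Fabp1 and Cd36 rose and Npc1l1 fell in HFD against ND. Fabp1, for a fatty acid binding protein and also a gene of the proximal list, rose by 2.96 (limma adjusted p = 0.00700) and the fatty acid transporter gene Cd36 by 1.23 (0.0413). The Cd36 call was lost at equal totals (0.0727) and without ND 1, ND 2, HFD 3, HFD 4 or FSP 1 (0.0546 to 0.178). Npc1l1, for the intestinal cholesterol transporter, went from 187 to 99.7 FPKM, a fall by 0.90 (limma adjusted p = 0.00484). In FSP it was higher than in HFD by 0.80 (limma adjusted p = 0.0237). The FSP call was lost with median-ratio scaling (0.0925) and without HFD 3, FSP 1, FSP 2 or FSP 4 (0.0535 to 0.0810).

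Of 12 partners in lipid loading in the endoplasmic reticulum, Cidec, Plin2 and P4hb rose in HFD against ND and 9 did not pass, while at equal totals 1 was higher and 1 lower. Cidec, for a lipid droplet protein, rose by 1.66 (limma adjusted p = 0.00204), the droplet coat gene Plin2 by 0.92 (0.0220) and P4hb by 0.80 (0.0263). Plin2 and P4hb did not pass at equal totals (0.0617 and 0.0680), without ND 1 (0.0991 and 0.120), ND 2 (0.0703 and 0.0901) or HFD 3 (0.0536 and 0.0632), nor P4hb without HFD 4 (0.0546). Cidec also marks fat cells. The 10 adipocyte genes, with Cidec itself among them, summed to 110 to 123 FPKM in ND, 198 to 338 in HFD and 144 to 508 in FSP. Much of that sum was Pck1, at 25.8 to 42.1, 86.1 to 209 and 41.9 to 163 FPKM. Of the 8 tested, Cidec and Pck1 were higher in HFD than in ND and the other 6 did not pass. Adipoq, which defines fat cells, stood at 1.16 to 2.05, 1.38 to 8.22 and 0.551 to 28.0 FPKM. The part of fat cells in these values was not tested.

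Cidec was also higher in FSP than in ND, by 1.40 (limma adjusted p = 0.0322), a call lost with median-ratio scaling (0.0544) and without ND 1, ND 2, HFD 3 or any FSP library (0.0534 to 0.151). In FSP against HFD 1 of the 12 passed. Tmem41b, for a lipid scramblase, was higher by 0.51 (limma adjusted p = 0.0403), and did not pass without any single library (0.0519 to 0.116) or with median-ratio scaling (0.181).

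Of 19 tested genes for the COPII coat and transport of the young particle, 4 rose and 1 fell in HFD against ND, or 6 and 0 by median ratios and 2 and 1 at equal totals. The vesicle SNARE gene Bet1 rose by 0.71 (limma adjusted p = 0.0125), and those of the cargo-binding coat subunits Sec24d by 0.92 (0.0163) and Sec24a by 0.44 (0.0278). Without ND 1 or ND 2 none of the 3 passed (0.0592 to 0.0988), nor did Sec24a without ND 3, HFD 1 or HFD 3 (0.0517 to 0.0630). Sec23b, for another coat subunit, fell by 0.40 (limma adjusted p = 0.0346), a call lost by median ratios (0.550) and without any ND or HFD library (0.0565 to 0.102). None of the 19 passed in either comparison with FSP.

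Of 12 other apolipoprotein genes 8 lay under a mean of 1 FPKM, Apoa5 of the same cluster among them. Apoa2, for a protein of high-density lipoprotein, went from 0.651 ± 0.328 FPKM (SD, n = 3) in ND to 4.14 ± 2.18 (SD, n = 4) in HFD and stood at 0.878 ± 0.391 (SD, n = 4) in FSP. It was higher in HFD than in ND by 1.55 (limma adjusted p = 0.00703), and FSP differed from HFD by −1.37 (0.0303). The second call was lost without ND 2, FSP 1, FSP 2, FSP 4 or any HFD library other than HFD 2 (0.0513 to 0.101). The 9 liver genes, from a tissue rich in apolipoprotein messengers, summed to at most 21.5 FPKM in any library, in FSP 4, where Hp stood at 16.1. Of the 3 tested, Ttr was higher in HFD than in ND and the other 2 did not pass. Alb stood at 3.06 FPKM in HFD 1 and under 1 in every other library. Ahsg, Fgb, Serpina1a and Apoh were also highest in HFD 1, at 0.956, 0.737, 0.534 and 0.767 FPKM, while Ttr, Cyp2e1, Hp and Tat were not. The part of liver RNA in these values was not tested.

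Of 11 tested genes for lipoprotein hydrolysis and receptors, 1 rose and 4 fell in HFD against ND, or 2 and 2 by median ratios. Angptl4, for an inhibitor of lipoprotein lipase, fell by 1.201 (limma adjusted p = 0.0121) and its relative Angptl8 rose by 1.03 (0.00337). Lsr, for a lipoprotein receptor, fell by 0.53 (limma adjusted p = 0.0272), a call lost by median ratios (0.317) and without HFD 3 or any ND library (0.0568 to 0.104).

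Of 25 tested regulators of apolipoprotein genes, 5 were higher and 8 lower in HFD than in ND, or 6 and 5 by median ratios. Gata6, for a transcription factor of the intestinal epithelium, rose by 0.83 (limma adjusted p = 0.00165) and the nuclear receptor gene Pparg by 1.19 (0.00365). Nr1h4, for the bile acid receptor and also on the distal list, fell by 1.76 (limma adjusted p = 9.18e-04), and Ppard fell by 1.10 (0.00354). Against HFD, FSP was lower in 2 of the 25, with differences of −0.55 in Gata6 (limma adjusted p = 0.0291) and −0.81 in Pparg (0.0446). Neither passed at equal totals (0.115 and 0.104) or without ND 2, HFD 1, HFD 3, HFD 4, FSP 1, FSP 2 or FSP 4 (0.0544 to 0.116), nor did Pparg without ND 1 or ND 3 (0.0673 and 0.0659). Nr1h4 differed between FSP and ND by −1.33 (limma adjusted p = 0.0247), and did not pass without ND 1, ND 2, HFD 3 or FSP 1 (0.0503 to 0.153).

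Of the 12 distal genes 10 fell in HFD against ND and 7 were higher in FSP than in HFD. Of the 9 tested proximal genes 7 were higher and 2 lower in HFD than in ND, and in FSP against HFD 1 was higher and 2 were lower.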

How the data were processed

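The authors deposited FPKM per gene and library, as a table of all 11 libraries and as single-library tables holding the same values for shared genes. The FSP tables list the same 24250 genes, while those of ND and HFD list 24294, of which 23609 are shared. Genes not shared were at 0 in those libraries. Per the labels' protocols, RNA was isolated with TRIzol and sequenced after library preparation with a VAHTS Universal V6 kit. In the submitters' processing notes stand HISAT2, HTSeq, fastp, the build mm10 and R 3.2.0. Which annotation was used, whether strand was, and how FPKM was made is not given in the sources used here, and reads of overlapping genes may count for either. Since FPKM is relative to a library's total, abundant RNA, such as the mitochondrial share, lowers the values of other genes. Depth was estimated from the steps of 413 single-exon genes. In each library 86.2% to 91.7% of their values at or under 10 fragments lay within 0.05 of a whole number of fragments, and counts were not rebuilt.

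Groups came from the sample titles. The values log2(FPKM + 1) of genes with a mean of at least 1 FPKM were fitted with limma 3.58.1 (R 4.3.3) over all 11 libraries, with a trend on mean level. All tests were two-sided, and low genes' changes are understated on this scale. Within-library ratios were tested by exact permutation in Python 3.11.15 with numpy 2.4.6. Gene positions are from GENCODE on GRCm38, the build that mm10 names.

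The members, lists, ratios and motifs were chosen with earlier results of these data known. The text names all members, up to 4 genes past the threshold per list and comparison by smallest p, the 3 genes most correlated with each tested member, and markers beside a result. A1cf, Rbm47, Hnf4a, Hnf4g and Apoa5 were named outside that rule, after their values were seen. A gene that the rule would name is not reported here. Alternatives were another pseudocount, filter or scaling, fits of 2 groups, a replicate block, the position score as a covariate and leaving out each library.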

Additional observations from a re-analysis of the deposited data

Results flagged for a closer look

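In groups of 4, a library was singled out where its gap to the nearest of the others was over 0.829 of the group's range. This held in 4 of 28 groups of values tested, and chance singles out about 1 in 20. Apoc3 stood at 2303 FPKM in HFD 1, against 993 to 1184 in the other HFD libraries. The ratio of Apoc3 to Apoa1 was 0.2556 there, against 0.0810 to 0.107. HFD 1 also had the highest mitochondrial share, 40.4%, and the highest level of the liver gene Alb, 3.06 FPKM. The part of either in these values was not tested. Apobec1 stood at 13.8 FPKM in FSP 4, against 17.1 to 17.7 in the other FSP libraries. Pla2g12b stood at 104 FPKM in FSP 2, against 80.9 to 84.1.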

How the results depend on the processing

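Of the 3 calls between HFD and ND, that of Apoa4 held in all settings run except with the position score as a covariate. With that covariate 0 members and 0 genes of either direction passed between HFD and ND, 0 and 0 genes between FSP and HFD, and 13 higher and 3 lower genes with 0 members between FSP and ND. Differences then changed sign, between HFD and ND to −0.18 for Apoa1, −0.81 for Apoc3, −0.58 for Mttp, −0.27 for Sar1b, −0.31 for Agpat3, −0.18 for Dgat2, −0.75 for Fabp1, −0.56 for Cd36, −0.30 for Plin2, −0.33 for P4hb and −0.52 for Sec24d. Between FSP and HFD they became 1.47 for Apoa4, 1.34 for Apoc3, −1.14 for Apoe, 0.65 for Mttp, 0.045 for Apobec1 and 0.26 for Sar1b, and between FSP and ND −0.22 for Apob and −0.0092 for Sar1b. The cause was not tested.

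Median-ratio scaling gave 899 higher and 799 lower genes for HFD against ND, 142 higher for FSP against HFD and 22 lower for FSP against ND, and a Pla2g12b difference of 0.20 between HFD and ND. Quantile normalization gave 1125 higher genes and 0.079 for Pla2g12b in HFD against ND, 194 lower genes and 1 member higher in FSP against HFD, and 126 higher and 66 lower genes with 2 members higher in FSP against ND. Equal totals gave 45 lower genes, 0.051 for Mttp and 0.0027 for Sar1b in FSP against HFD, and 20 lower genes in FSP against ND. Equal totals without mitochondrial genes and members gave 942 lower genes and 0.059 for Pla2g12b in HFD against ND, and 157 higher genes in FSP against HFD. Without a filter, which tests more genes, FSP against HFD gave 86 and 31 genes and FSP against ND 25 higher genes and 0 members. Fits of only the groups compared gave 56 and 20 genes, and 42 higher genes and 0 members, for the same comparisons. The cause of these shifts was not tested.

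Leaving out a library in turn gave 266 to 639 higher and 561 to 2049 lower genes with 1 to 3 members higher for HFD against ND, 34 to 350 and 14 to 123 with 0 to 1 member for FSP against HFD, and 11 to 108 and 2 to 97 with 0 to 2 members for FSP against ND. Pla2g12b between HFD and ND ran from −0.22 to 0.089, Mttp between FSP and HFD from −0.18 to 0.060, and Apob between FSP and ND from −0.13 to 0.22. Without a library the log2 ratios have fewer rearrangements, and for the 8 that had passed the exact permutation adjusted p lay between 0.0571 and 0.178. Apoa4 to Apoa1 ran from 3.12 to 4.44 (HFD against ND), −1.31 to −0.98 (FSP against HFD) and 1.99 to 3.315 (FSP against ND), Apoa4 to Apoc3 from 1.89 to 2.28 and 1.73 to 2.06 (each against ND), Apoc3 to Apoa1 from 1.23 to 2.24 (HFD against ND) and Mttp to Apob from 0.72 to 0.98 (HFD against ND) and −0.60 to −0.38 (FSP against HFD). As differences of medians, in the same order, they were 3.53, −1.27 and 2.25, 2.14 and 1.92, 1.32, and 0.85 and −0.52, each with an exact permutation adjusted p of 0.0762.

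The sample titles do not say whether the replicate numbers pair the libraries, and so few libraries cannot settle it. Deviations of same-numbered libraries correlated at −0.0937 to 0.0428 (HFD and ND), 0.0181 to 0.454 (FSP and HFD, over 0.1 in 3 of 4) and −0.0994 to 0.203 (FSP and ND). Each HFD and FSP library correlated best with its own number in 0 of 3, 0 of 4 and 2 of 3 cases. With a replicate block the counts were 651 and 1706, 240 and 97, and 54 and 23 genes, with 3, 0 and 1 members. For the ratios the replicate block, on numbers 1 to 3, gave 3.85, −1.01 and 2.84, 1.98 and 1.83, 1.87, and 0.85 and −0.38 in the order above, where 3 pairs cannot reach the threshold. Depth limits Apoc2 most, at 3.0 to 40.8 fragments.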
